A study of Bos taurus with 16 samples.

Results

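Cattle (Bos taurus) kidney RNA that had gone through 3 rounds of linear amplification was compared with kidney RNA that had gone through 1 round. Of the 16 arrays of the series, 4 carried round 3 RNA and 4 carried round 1 RNA, as their labels state. Each round had replicates 1 and K, and each RNA was hybridised on a pair of arrays with Cy3 and Cy5 exchanged, so that 4 of the 8 kidney RNAs are compared here. The remaining arrays carried kidney RNA of round 2 and unamplified total RNA, called round 0. All arrays had the same reference RNA in the other channel, and per the labels that reference had itself been amplified for 2 rounds. The array was a custom print of bovine cDNA clones, and each clone is called a feature below. The labels give no age, sex or treatment, and nothing in them tells whether replicates 1 and K came from different animals or from repeated amplification of the same RNA. The p-values therefore measure only the spread between these RNAs, which may be technical.

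Linear amplification of the kind the labels cite primes poly(A) RNA with oligo(dT) joined to a T7 promoter, makes double-stranded cDNA and copies it with T7 RNA polymerase into antisense RNA. In a further round the antisense RNA is turned back into cDNA with random primers, and the products are known to become shorter and to lie nearer to the 3′ end of the transcript. A spotted cDNA clone covers only the stretch of the transcript that was cloned. The series title ties the work to RNA of single bovine embryos, which is too scarce to be labelled without amplification. The question of this comparison is which kidney ratios change when 2 further rounds follow the first.

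Ratios are given as log2 of kidney over reference after each array was centred on its median, and a difference is round 3 minus round 1. The labels do not state this direction of the ratio. It was taken because the kidney gene list then lies above the reference in both dye orientations, with a median between 2.65 and 3.07 on each of the 8 arrays. If the deposited ratios ran the other way, every sign below would turn. After centring, 0 is the median feature of an array. Above or below the reference therefore means above or below that median, here and in what follows. The deposited medians of these 8 arrays ran from -1.32 to -0.05. The base of the logarithm is not stated either; base 2 was taken, since a number that recurs in the columns, 16.61, is the log2 of 100000, and every fold below rests on it. On these 8 arrays 14182 to 15541 of 16896 spots (83.9% to 92.0%) had a ratio, and the correlation between the printed duplicates was 0.560 to 0.822. The arrays of a dye swap correlated at -0.474 to -0.195 across spots before they were turned to 1 direction. The deposited column of 1 array (round 1, replicate 1, kidney in Cy3) ends its ratios at spot 15810 and holds 69 whole numbers in its last spots. They were dropped where beyond 10 in size, and the number of features called below was also 16 with all of them dropped.

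Of 5537 features with a listed gene that were tested, 16 passed at an adjusted p under 0.05 (limma, Benjamini-Hochberg), and all 16 were lower at round 3 (0.289% of features, against 0% that passed as higher). They fell by 1.83 to 3.65 on the log2 scale, which is 3.55-fold to 12.6-fold. None of the 16 overlapped between the rounds, but neither did 52.6% of all features, so that separation alone says little with 2 RNAs a round. At an unadjusted p under 0.05, 543 features were lower (9.81%) and 633 were higher (11.4%). An exact test of 2 RNAs against 2 cannot give a p under 0.333, so that every call leans on the spread pooled over the 4 rounds.

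The calls did not hold under every treatment of the same data. With the arrays left uncentred, 0 features passed, and the split at an unadjusted p under 0.05 became 1463 higher and 95 lower, because the median difference over all features was then 0.71 in place of 0.06. With 1 RNA left out the count was 0 to 3, beside 820 to 1182 features at an unadjusted p under 0.05: 3 without round 3 replicate 1, 1 without round 1 replicate 1, and 0 without any other RNA. It was also 0 when only rounds 1 and 3 were fitted, where 877 features had an unadjusted p under 0.05. It was 159 when both duplicate spots of a feature had to be measured on an array. The 16 features stayed lower in every setting in which they could be tested. This is no separate support, since they were chosen as lower in the same data. Several settings change only the fit: with only rounds 1 and 3 fitted the differences were again -3.65 to -1.83.

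Among the features that passed, the largest decrease was that of PNRC2, a nuclear receptor coactivator that also takes part in mRNA decapping. Its ratios were -0.34 and 0.63 at round 3, against 3.57 and 4.02 at round 1, for replicates 1 and K in that order. Both round 3 RNAs stood near the reference and both round 1 RNAs far above it, a difference of -3.65 ± 0.36 (SE, n = 2 each, adjusted p = 0.0216, limma). PNRC2 had a ratio on 3 of the 4 round 3 arrays, so that its dye swap was incomplete there. TMED5, a p24 protein of transport vesicles between endoplasmic reticulum and Golgi, came next. It stood at 0.25 and -1.05 at round 3, against 3.40 and 3.07 at round 1, and so fell by 3.64 ± 0.43 (adjusted p = 0.0406). Its round 3 replicates lay on opposite sides of the reference.

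RHOB, a small GTPase of endosomes and the actin cytoskeleton, had the smallest p of all features. Both round 3 RNAs gave -0.38, against 2.83 and 2.87 at round 1, a difference of -3.23 ± 0.22 (adjusted p = 0.0145). Its replicates lay closer to each other than those of any other called feature with a difference beyond 3. DDX17, an RNA helicase of splicing and microRNA processing, stood at 0.21 and -0.40 at round 3, against 3.35 and 2.72 at round 1. MAPK6, an atypical MAP kinase, stood at -0.57 and -1.33 at round 3, against 2.23 and 2.02 at round 1. These fell by 3.13 and 3.07 (adjusted p = 0.0216 each).

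EIF4H, which stimulates the helicase of translation initiation, stood at -0.81 and -0.41 at round 3, against 2.02 and 2.76 at round 1. PPP1R15B, a regulatory subunit that directs protein phosphatase 1 to the initiation factor eIF2α, stood at -1.21 and -0.86 at round 3, against 2.06 and 1.45 at round 1. On the centred scale both were below the reference after 3 rounds and above it after 1. CAMK2G, a calcium/calmodulin-dependent kinase, stood at -1.93 and -1.79 at round 3, against 0.79 and 1.04 at round 1, and it too had only 3 of the 4 round 3 arrays. CD2AP, an adaptor of the podocyte slit diaphragm, stood at -1.39 and -0.63 at round 3, against 1.50 and 1.98 at round 1. The 4 features fell by 3.01, 2.79, 2.78 and 2.75, with adjusted p-values of 0.0319, 0.0223, 0.0216 and 0.0403.

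HSP90AA1, the inducible cytosolic HSP90, stood at -1.70 and -1.84 at round 3, against 0.87 and 0.62 at round 1. ABCD3, a fatty acid transporter of the peroxisome membrane, stood at 0.66 and 0.64 at round 3, against 3.19 and 3.07 at round 1. PPP1R12A, the myosin phosphatase targeting subunit, stood at -0.81 and -0.59 at round 3, against 1.74 in both RNAs of round 1. These 3 had differences of -2.51, -2.48 and -2.44, each with an SE of 0.20 and an adjusted p of 0.0145. ABCD3 was the only called feature above the reference in both RNAs of both rounds.

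The remaining calls were LOC783577, listed as a pseudogene, which fell by 2.30, COPZ1, a subunit of the COPI vesicle coat (2.18), MCL1, an anti-apoptotic BCL2 relative (1.99), and CNOT7, a deadenylase of the CCR4-NOT complex (1.83). Their adjusted p-values were 0.0319, 0.0460, 0.0216 and 0.0431. For 14 of the 16 features the difference could be taken within each dye orientation. It ran from -4.16 to -2.09 on arrays with kidney in Cy5 and from -3.19 to -1.43 on arrays with kidney in Cy3. It was larger in Cy5 for 14 of 14, whereas over all tested features the Cy5 difference was the larger in size for 47.7%. With the 16 arrays fitted with a term for the dye, all 16 features passed again, with differences of -3.89 to -1.83. Such a term does not take up a difference between rounds that varies with the dye. That fit also counted arrays of 1 RNA nearly as separate samples. With kidney in Cy3 only, 0 of the 15 called features that could be tested passed, and with kidney in Cy5 only 9 of 14.

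**Figure D1:**
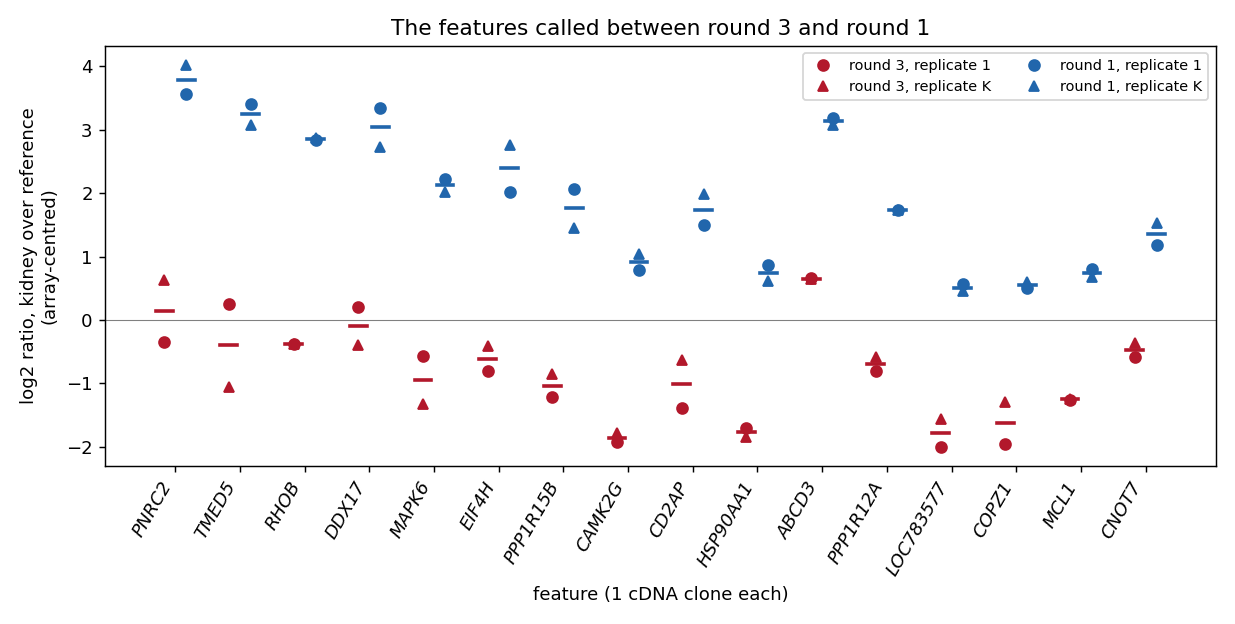
Log2 ratio of kidney over reference (y axis) of the 16 features that passed (x axis, by size of the difference), with round 3 in red to the left of round 1 in blue; circles are replicate 1, triangles replicate K and lines the mean of 2. All round 3 values lie below the round 1 values of the same feature, from PNRC2 with a difference of -3.65 to CNOT7 with -1.83.

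Large and small differences were not spread alike. The median difference was 0.06, with quartiles of -0.43 and 0.44. Beyond 1 in size there were 534 lower and 246 higher features, and beyond 2 there were 85 lower and 17 higher, so that the lower side had the longer tail. Without centring, 32 were lower and 109 higher by more than 2. Of the features at an unadjusted p under 0.05, the lower ones had a median size of 1.21 and the higher ones of 0.81. In this fit the higher differences at that level were therefore more numerous and smaller than the lower ones. Which side was more numerous changed with the setting. There were 583 higher and 502 lower with both duplicate spots required, but 417 and 460 with only rounds 1 and 3 fitted. Without the round 1, replicate 1, Cy3 array there were 367 higher and 459 lower. Over all features the median size of the difference was 0.44, beside a median distance between the replicates of 0.33 at round 3 and 0.37 at round 1.

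**Figure D2:**
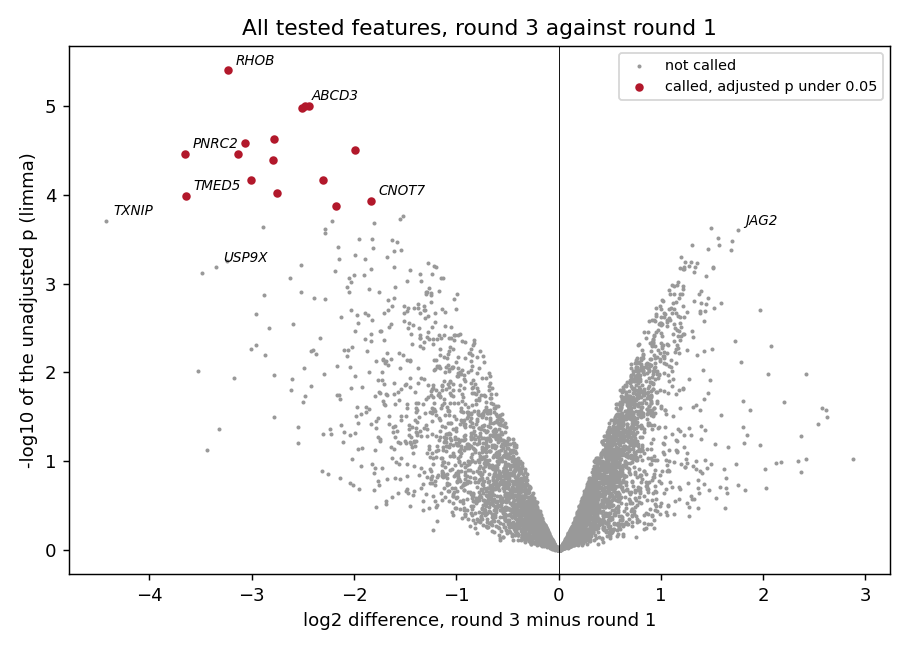
Log2 difference of round 3 minus round 1 (x axis) and -log10 of the unadjusted p (y axis) for 5537 features, with the 16 that passed in red and the others in grey. The called features all lie left of 0, and TXNIP, with the largest difference at -4.42, did not pass.

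TXNIP, which binds and inhibits thioredoxin, had the largest difference of all. It stood at -0.14 and 0.79 at round 3, against 4.24 and 5.25 at round 1, a difference of -4.42 ± 0.58 that did not pass (adjusted p = 0.0548). It passed in 4 of the 22 other settings in which it was tested, with adjusted p-values from 0.000471 to 0.205 over them. Its replicates were about 1 log2 unit apart in each round. USP9X, a deubiquitinase, stood at 0.66 and -0.61 at round 3, against 4.01 and 2.74 at round 1 (-3.35, adjusted p = 0.0596). PSAP, the precursor of the saposins of the lysosome, stood at 0.54 and -0.07 at round 3, against 4.27 and 2.68 at round 1 (-3.24, adjusted p = 0.0596). Neither passed, and for both the round 1 replicates lay over 1 log2 unit apart, but PSAP passed when both duplicate spots were required (-3.39, adjusted p = 0.0376).

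No feature passed as higher at round 3. The 12 with the smallest p had differences of 1.20 to 1.75 and adjusted p-values of 0.0558 to 0.0596. When both duplicate spots were required, 4557 features were tested, 60 passed as higher (1.32%) and 99 as lower (2.17%), and all 12 of these were among the 60. Of the 16 main calls, 14 could be tested in that fit, and all 14 passed again.

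JAG2, a ligand of Notch receptors, was the farthest of the 12. It stood at 1.11 and 0.96 at round 3, against -0.45 and -0.97 at round 1 (1.75 ± 0.24, adjusted p = 0.0558). MAGED2, known from humans to be needed for salt reabsorption in the fetal kidney, stood at 0.87 and 1.01 at round 3, against -0.45 and -1.04 at round 1 (1.69). Both features crossed the reference from one round to the other. ACSL5, which activates long-chain fatty acids, stood at 0.38 and 0.35 at round 3, against -1.23 and -1.15 at round 1 (1.56 ± 0.22, adjusted p = 0.0590). BDH2, a dehydrogenase linked to ketone body use and siderophore synthesis, stood at 2.71 and 2.58 at round 3, against 1.27 and 1.05 at round 1 (1.49 ± 0.20, adjusted p = 0.0558). BDH2 was above the reference at both rounds and farther above it at round 3.

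OCIAD2, a mitochondrial protein, likewise stood above the reference throughout, at 3.14 and 2.98 at round 3, against 1.90 and 1.63 at round 1 (1.29). PSMC2, an ATPase of the proteasome, stood below it throughout, at -0.47 and -0.37 at round 3, against -1.62 and -1.70 at round 1 (1.24). The other 6 were LOC512953 (1.70), TINF2 of the telomere-protecting shelterin complex (1.57), RPP30, a subunit of RNase P (1.46), SMIM7 (1.35), SLC25A5, an ADP/ATP carrier of mitochondria (1.28), and ARPC1A of the actin-branching Arp2/3 complex (1.20). Of the 12, 10 had both round 1 RNAs below the reference, and 11 had both round 3 RNAs above it, with PSMC2 as the exception. RPP30 differed by 2.65 with kidney in Cy5 and by only 0.28 with kidney in Cy3. The others of the 12 differed by about 1 or more in each orientation.

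Rounds 2 and 0 were not part of the contrast and place these features in the course of amplification. The mean at round 2 lay between rounds 3 and 1 for 16 of the 16 called features, against 55.3% of all features and 90.1% of the 71 others that were lower by more than 2. The mean of unamplified RNA also lay between them for 16 of 16, against 27.5% of all features and 77.5% of those 71. The median of the called features was 0.41 at round 0, 1.75 at round 1, 0.42 at round 2 and -0.82 at round 3. After 1 round they thus stood above the level of unamplified RNA, by a median of 1.65, and after 3 rounds below it, by a median difference of -1.12. The step from round 1 to round 2 was the larger one for 11 of the 16. PNRC2 made most of its course there (-3.16, then -0.49 from round 2 to 3), while COPZ1 made most of it in the later step (-0.38, then -1.80).

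The 12 features named as higher ran the opposite way. Round 2 lay between the rounds for 12 of 12 and round 0 for 11 of 12. These placements were not tested, and a feature chosen for a large difference leaves more room between its ends. Rounds 0 and 2 also gave part of the spread behind the test.

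**Figure D3:**
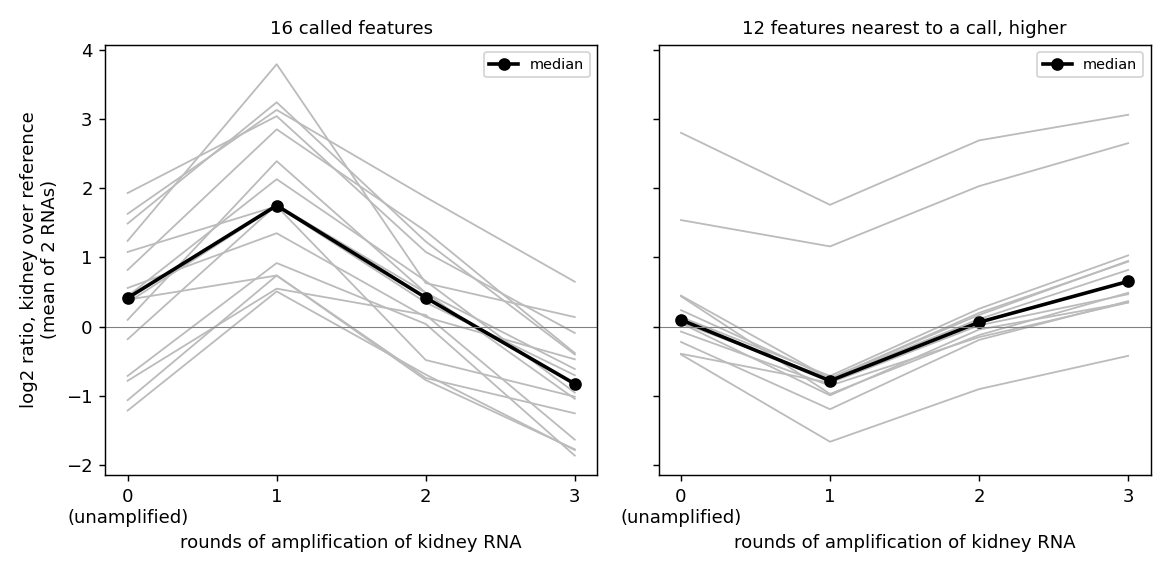
Mean log2 ratio of 2 RNAs (y axis) at 0, 1, 2 and 3 rounds (x axis) for the 16 called features (left) and the 12 features named as higher, none of which passed (right); grey lines are features and the black line their median. On the left the median peaks at round 1 at 1.75 and is -0.82 at round 3, and on the right it is lowest at round 1.

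Where a gene was printed as more than 1 clone, the clones can be set beside each other. Of the 16 called genes 5 had another tested clone, and none of these passed. PNRC2 fell by 3.65 in the called clone and differed by -0.50 ± 0.30 in the other (adjusted p = 0.391). EIF4H fell by 3.01 in the called clone and differed by 0.18 ± 0.24 in the other (adjusted p = 0.706). For PPP1R15B the other clone differed by -0.20 ± 0.58, for CAMK2G by -0.24 ± 0.34 and for LOC783577 by 0.72 ± 0.27. That PPP1R15B clone had round 3 replicates of -0.47 and 1.21, too far apart to show no difference. The other clones thus lay within 1 log2 unit of no difference, while the called ones were beyond 2. Called clones were selected on this same comparison, so that part of the contrast follows from the selection.

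Large negative differences that did not pass were likewise seen in 1 clone of a gene and not in another. Separate clones of USP9X differed by 0.19 and -0.26 beside the one at -3.35, another of PSAP by 0.17, and another of ECM1, a secreted matrix glycoprotein, by 0.25 beside one at -2.89. ECM1, like PSAP, passed when both duplicate spots were required (-3.45, adjusted p = 0.00273). ARHGAP17, a GTPase-activating protein of tight junctions, had clones at -2.96 and 0.74. Of the 85 features lower by more than 2, 31 had another tested clone of the gene. The other clones had a median difference of 0.17, and 10 of the 31 (32.3%) were lower, against 46.5% of all tested features.

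Other clones of higher features were counted in the same way. Of the 633 at an unadjusted p under 0.05, 235 had another clone, which was higher as well for 172 (73.2%), with a median difference of 0.43, against 53.5% of all features that were higher. PSMC2 differed by 1.24 and 0.77 in its clones, whereas the other clones of ACSL5 (-0.06 ± 1.18) and TINF2 (0.18 ± 0.39) stood near 0. For lower features at that level the other clone was lower for 111 of 193 (57.5%). Over all features with another clone the signs matched for 58.7%, and the differences between these shares were not tested. Clones of a gene may cover different stretches of its transcript, and which stretch each one holds was not analysed here.

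**Figure D4:**
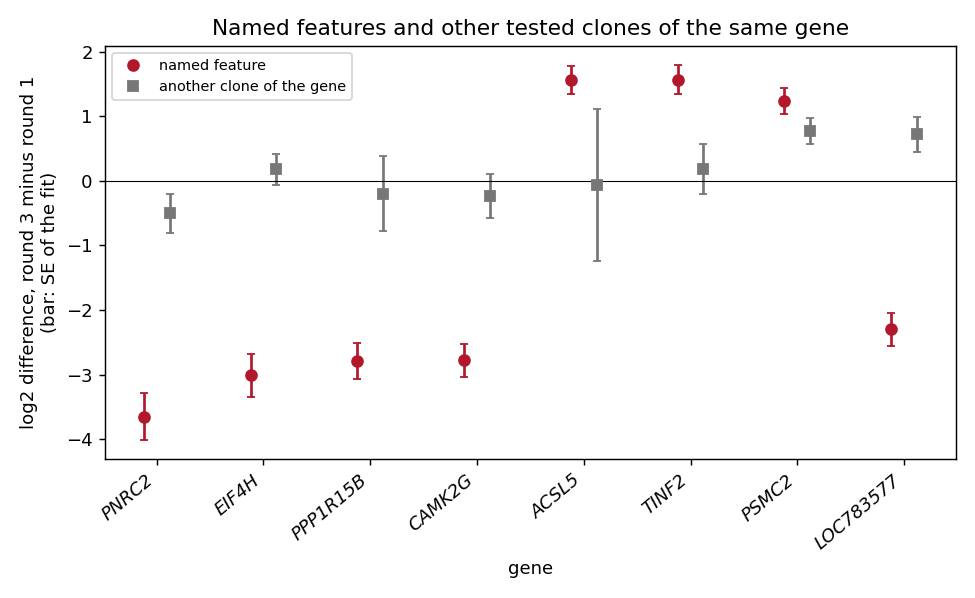
Log2 difference of round 3 minus round 1 (y axis, bars are the SE of the fit) for the named feature (red circles) and another clone (grey squares) of the 8 genes with both. The called clones of PNRC2, EIF4H, PPP1R15B, CAMK2G and LOC783577 lie at -2.30 or lower, and their other clones between -0.50 and 0.72.

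Markers of kidney lay above the reference at both rounds. Of 19 features of 12 kidney genes, 17 had a mean above the reference at round 3 and 18 at round 1, and none passed between the rounds. The sign of this list against the reference is no result, since it set the direction of the ratio. ENPEP, the aminopeptidase A of the brush border, stood at 5.48 and 4.96 at round 3, against 5.30 and 5.14 at round 1, a difference of 0.01 ± 0.24. The 3 clones of AQP3, a water channel of the collecting duct, differed by -0.01, 0.21 and 0.25, and ANPEP, aminopeptidase N, by -0.15. These groups overlapped.

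Other kidney markers lay lower at round 3 without passing. GPX3, the plasma glutathione peroxidase made in kidney tubules, stood at 1.33 and 1.82 at round 3, against 4.78 and 4.13 at round 1 (-2.88 ± 0.53, adjusted p = 0.0690). It passed when both duplicate spots were required, at -2.92 with an adjusted p of 0.0402. DPP4, a brush border peptidase, stood at 2.73 and 2.99 at round 3, against 5.11 and 3.97 at round 1 (-1.68, adjusted p = 0.106). A GATA3 clone stood at 3.32 and 3.25 at round 3, against 5.24 and 4.61 at round 1 (-1.64, adjusted p = 0.114), and its other clone differed by 1.82 ± 1.31 with round 3 replicates of 3.90 and 0.61. AQP1, which lets water through proximal tubule cells, differed by -0.85 (adjusted p = 0.156).

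At an unadjusted p under 0.05, 0 kidney features were higher and 4 lower (21.1%, against 9.81% of all features). The median difference was -0.23. The median level of the list was nevertheless 2.86 at round 3 and 2.81 at round 1, so that median level and median difference point opposite ways. The median difference was -0.06 without round 1 replicate 1, -0.05 with arrays scaled to 1 spread, -0.04 in the Cy5 arrays alone and 0.41 without centring. Relative to the median of all features it was -0.29, and -0.42 to -0.09 over the 23 other settings. Markers of other cells had 0 features that passed. The stroma and endothelium list (15 features) had a median difference of -0.18. At an unadjusted p under 0.05 it had 0 higher and 2 lower (13.3%), with DES, the muscle intermediate filament, lowest at -1.68. DES had a ratio on only 2 of the 4 round 1 arrays, and no difference could be taken with kidney in Cy5. The immune list (9) had a median of -0.03 and the trophoblast and placenta list (14) one of 0.09, each with 1 higher and 1 lower at that level. Blood markers were not analysed here. Fewer cells of a type and less RNA per cell cannot be told apart in such tissue RNA, although here both rounds start from kidney RNA.

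Several gene families of energy metabolism and protein synthesis had median differences above that of all features, with no higher feature passing. Some of these medians shrank without the round 1, replicate 1, Cy3 array. Relative to all features, translation factors were then at 0.02 (0.18 with it) and oxidative phosphorylation at 0.08 (0.16). Cytosolic ribosomal proteins were at -0.03 (0.09), central carbon metabolism at 0.13 (0.17) and mitochondrial ribosomal proteins at 0.23 (0.26). Fatty acid metabolism was at 0.38 either way. Enzymes of fatty acid metabolism had the highest median, 0.43 over 30 features, against 0.06 over all. Of them 9 were higher and 1 lower at an unadjusted p under 0.05 (30.0% higher, against 11.4% of all features). Beside ACSL5 these were ECI2 (1.50) and HADH (0.95) of β-oxidation, ACAA1, the peroxisomal thiolase (1.39), ACAD8 of valine breakdown (0.90), and CPT2 and ACADVL of mitochondrial fatty acid import and oxidation (0.88 each). FABP5, a fatty acid binding protein, and ETFDH, which passes electrons on to ubiquinone, were at 0.78 and 0.58. HADHA, the α subunit of the trifunctional protein of β-oxidation, went against them, at 0.57 and -1.68 at round 3, against 2.64 and 2.18 at round 1 (-2.96, adjusted p = 0.0983).

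Cytosolic ribosomal proteins had 15 higher and 2 lower of 56 at that level (26.8% and 3.57%), with a median of 0.14. Over all features the shares were 11.4% and 9.81%. RPS2 of the small subunit stood at 0.09 and 0.04 at round 3, against -1.01 and -1.72 at round 1 (1.43, adjusted p = 0.0751). RPL6 (1.26) and RPS16 (1.04) lay the same way, while RPS29, also of the small subunit, stood at -1.29 and -1.24 at round 3, against -0.14 and 0.22 at round 1 (-1.30, adjusted p = 0.0690). The median of this list relative to all features changed sign among the settings tried. Mitochondrial ribosomal proteins had 12 higher and 1 lower of 44 (27.3% and 2.27%) and a median of 0.32. They were led by MRPL43 (1.28), MRPL45 (1.23) and MRPL51 (0.95), with MRPL35 as the lower one (-1.08).

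Nuclear genes of oxidative phosphorylation had 12 higher and 3 lower of 56 (21.4% and 5.36%, against 11.4% and 9.81% of all features). Their median was 0.22. UQCRC2, a core subunit of complex III, stood at 0.85 and 0.71 at round 3, against -0.29 and -0.41 at round 1 (1.13, adjusted p = 0.0690), and ATP5F1B of the ATP synthase differed by 1.15. UQCRC1, the partner of UQCRC2, had clones at -0.89 and 0.75. Translation factors had 9 higher and 2 lower of 47 (19.1% and 4.26%). EEF1D of the elongation factor exchange complex was at 1.32 and EIF6 at 1.17, beside the called decrease of EIF4H. Enzymes of central carbon metabolism had 6 higher (15.4%, near the 11.4% of all features) and 2 lower of 39. MDH2, the mitochondrial malate dehydrogenase, stood at 1.18 and 1.33 at round 3, against 0.17 and -0.42 at round 1 (1.39, adjusted p = 0.0690), and cytosolic MDH1 differed by 0.99. Both passed when both duplicate spots were required, a setting with 159 calls in place of 16.

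Redox and detoxification genes had 11 higher and 2 lower of 40 (27.5% and 5%, against 11.4% and 9.81% of all features). ALDH2, the mitochondrial aldehyde dehydrogenase, stood at 2.74 and 2.99 at round 3, against 1.65 and 1.30 at round 1 (1.39, adjusted p = 0.0748). The peroxiredoxin PRDX2 (0.92) and catalase, CAT (0.90), lay the same way. The 2 lower members were TXNIP and GPX3, which had the largest differences of the list.

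**Figure D5:**
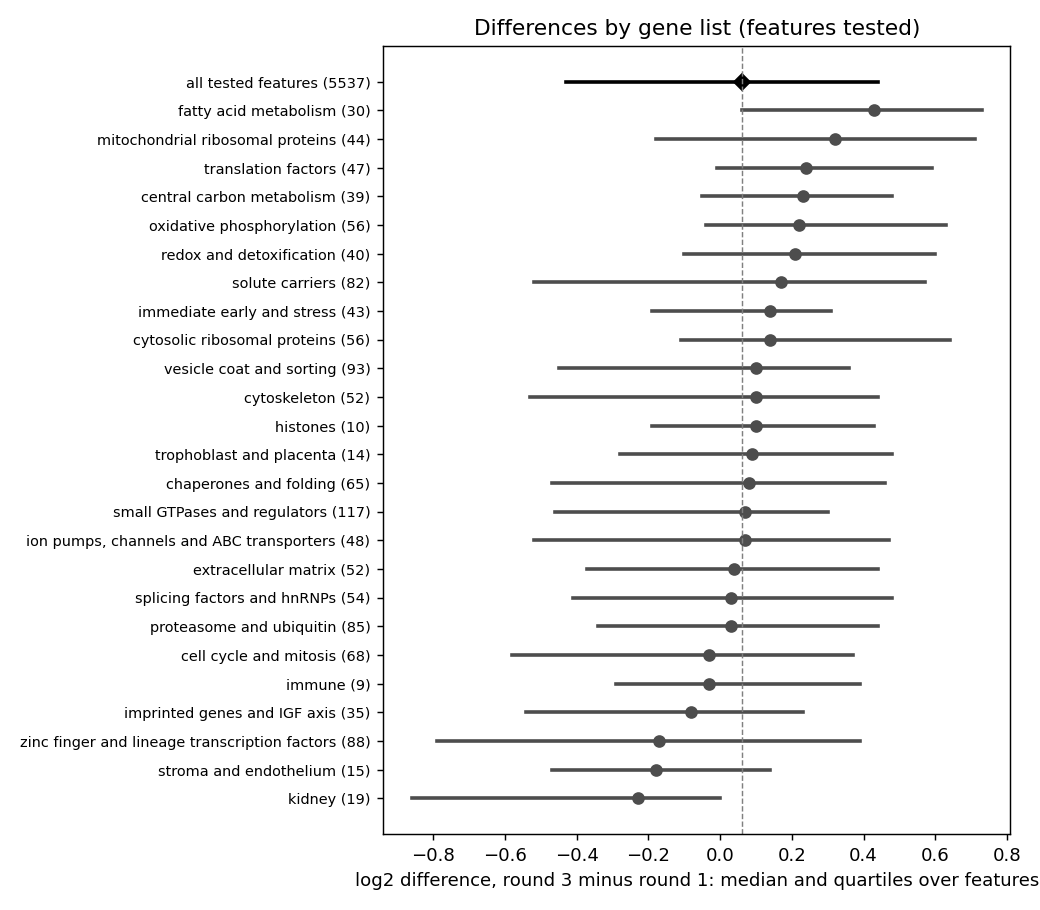
Median and quartiles (points and bars) of the log2 difference of round 3 minus round 1 (x axis) for 25 gene lists and all tested features (y axis, number of features in brackets); the dashed line is the median of all features, 0.06. Fatty acid metabolism lies farthest to the right at 0.43 and kidney markers farthest to the left at -0.23, although their median was between -0.36 and 0.41 over the other settings.

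Beside EIF4H, called features came from 4 lists whose medians were within 0.04 of that of all features. Vesicle coat and sorting genes had 2 calls of 93, TMED5 and COPZ1, where 0.289% of all features were called. At an unadjusted p under 0.05 they had 9 higher and 13 lower (9.68% and 14%), near the 11.4% and 9.81% of all features. SEC62 of the endoplasmic reticulum translocon stood at -0.50 and -0.53 at round 3, against 1.23 and 0.82 at round 1 (-1.54, adjusted p = 0.0596), and VPS26B of the retromer differed by 1.32. Small GTPases and their regulators had RHOB as the 1 call of 117, with 9 higher and 13 lower (7.69% and 11.1%). Chaperones had HSP90AA1 as the 1 call of 65, with 11 higher and 9 lower (16.9% and 13.8%). HSPD1, the mitochondrial chaperonin, differed by -2.19 and HSP90B1 of the endoplasmic reticulum by -1.76, while CCT3, a subunit of the cytosolic chaperonin, differed by 1.37.

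Ion pumps, channels and ABC transporters had ABCD3 as the 1 call of 48, where 0.289% of all features were called. ATP1B1, a subunit of the sodium pump, had clones at -2.49 and -0.14. The proteasome and ubiquitin list had no call of 85. It had 13 higher and 9 lower (15.3% and 10.6%, against 11.4% and 9.81% of all features). Its proteasome subunits PSMB6 (1.38) and PSMC2 lay higher, and the ubiquitin enzymes USP9X and UBE2R2 (-1.85) lower. Splicing factors and hnRNPs had 9 higher and 5 lower of 54 (16.7% and 9.26%). SF3B3 was at 1.12, SRSF3 at -1.21 and PRPF4B clones at 1.09 and -1.98. Zinc finger and lineage transcription factors had 9 higher and 11 lower of 88 (10.2% and 12.5%) and a median of -0.17. ZNF350 stood at 3.67 and 3.07 at round 3, against 5.38 and 5.26 at round 1 (-1.95, adjusted p = 0.0590).

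Lists near the background, 11.4% higher and 9.81% lower over all features, gave little to set apart. Solute carriers had 9 higher and 10 lower of 82, cytoskeletal genes 4 and 7 of 52, and extracellular matrix genes 7 and 3 of 52. The lowest difference among the cytoskeletal genes was that of TUBA1A, an α-tubulin (-2.03), and LAMA5, a laminin of basement membranes, had the smallest p of the matrix genes (0.85). LAMA5 differed by 1.68 with kidney in Cy5 and by 0.02 with kidney in Cy3. Immediate early and stress genes had 7 higher and 3 lower of 43, with JUNB of the AP-1 family at 1.38, clones of the phosphatase DUSP1 at 0.89, -0.42 and -1.05, and clones of KLF6 at -1.11, -1.10 and 0.14. Cell cycle genes had 4 higher and 6 lower of 68. By more than 1, 10 of them were lower and 1 higher, beside 534 lower and 246 higher of all 5537 features. The smallest p of that list was for CDC5L, which acts in the spliceosome, at -2.21 (adjusted p = 0.0548). Histones had 1 higher of 10, H1-2 at 0.60, and imprinted genes 2 higher and 3 lower of 35, with PLAGL1 at -0.92.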

How the data were processed

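For 15 arrays the authors deposited log ratios between the channels, taken here as log2 because the base is not stated; how they scanned and normalized them is not given here. The deposited column of the round 1, replicate 1, Cy3 array mixes such ratios with whole numbers and is called a score. Its 142 values beyond 10 in size were dropped, 52 of them whole numbers of its last spots and 90 the recurring 16.61. The rest were used as ratios. On every array values beyond 10 in size were missing, arrays with kidney in Cy3 had their sign turned, the median of an array's listed features was subtracted, and duplicate spots and then dye swaps were averaged. An RNA has a value where either array has one.

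The annotation table lists genes for 5693 of 8448 features (5598 with 1 symbol, 95 with several, 2755 unlisted); all 5591 found by gene identifier had the same symbol in a current table. In all, limma tested 5537 listed features with a value in all 8 RNAs. The model (limma 3.58.1 in R 4.3.3, lmFit and eBayes) had a mean per round, with 4 residual and 2.4 prior degrees of freedom, two-sided p-values with Benjamini-Hochberg adjustment across the tested features, and a threshold of 0.05. The pipeline was tested on simulated data. The number of arrays limits the precision.

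Named genes are, each way, the 12 largest calls or else those with the smallest p, from each gene list the largest calls or the smallest p, and other clones of these genes; further list members at an unadjusted p under 0.05, and other genes with several clones, were named after their values were seen. The members, lists and rules were chosen with earlier results of these data known. Alternatives changed the centring, scaling, spots, features, dyes, replicates and fit.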

Additional observations from a re-analysis of the deposited data

Results flagged for a closer look

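The features without a listed gene were not part of the comparison. When all 8007 features with values were fitted together, 12 passed (0.15%) and 1495 had an unadjusted p under 0.05 (limma). Of the 8007, 2470 had no listed gene. Among those 2470, 2 passed, both lower at round 3, and 395 had an unadjusted p under 0.05. Neither count is above the share over all features. Unlisted features are signals outside the main measurement, and which of them are control spots is unknown here. No test for a single outlying sample was made, since each round has 2 RNAs.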

How the results depend on the processing

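The count of 16 called features was 0 without centring, with only rounds 1 and 3 fitted and with kidney in Cy3 only (1558, 877 and 790 at an unadjusted p under 0.05, limma), and 0 to 3 with an RNA left out (820 to 1182). It was 159 with both duplicate spots required, 526 (298 higher, 228 lower) with the 16 arrays and a dye term, and 232 (104 higher, 128 lower) for features with a ratio on all 16 arrays, an alternative chosen after seeing the data. The cause was not tested, although leaving out RNAs or rounds leaves fewer residual degrees of freedom. The dye-term fit has 11 of them, since it counts 16 arrays of 8 RNAs; the RNA was a random block, but the estimated correlation within it was -0.079, so that arrays of 1 RNA counted nearly as separate samples and its p-values may be too small. It was 12 to 20 in the other 9 settings, among them 12 with the replicate name as a block, which kept 11 of the 16. The replicate names were not shown to pair the RNAs: deviations of same-named replicates correlated at -0.046 to 0.169 between rounds, above 0.1 in 1 of 6 pairs of rounds. Single named features, called or not, kept their side of the threshold in 727 comparisons with a setting, lost it in 195 and gained it in 71. Only the 16 called features could lose it, and they lost it more often than they kept it. List medians moved by more than the replicate spread in 53 comparisons and by less in 322. No called feature changed sign in any setting, but they were chosen as lower in the same data, and several settings cannot move a difference. TFAP2C, not called, was at -0.03 with both duplicate spots required, against 1.19. List medians changed sign 28 times. Without centring, which shifts all features by 0.71 in place of 0.06, 6 did, among them kidney (0.41), stroma and endothelium (0.46) and zinc finger factors (0.49). The other 22 fell in 11 lists with medians of at most 0.14 in size, among them cytosolic ribosomal proteins, at -0.04 with scaled arrays. No signal intensities were used, and dim spots were therefore kept.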
